A study of Mus musculus with 12 samples.

Results

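The genes described here make cholesterol and fatty acids, switch that synthesis on, or remove cholesterol from the cell. The list holds 38 mouse genes: enzymes of the mevalonate pathway, enzymes from squalene to cholesterol, SREBP regulators, 1 sterol transporter, enzymes of fatty acid synthesis, and LXR receptors with LXR target genes. They were taken by symbol from a table of 25263 symbols, and 36 had a value. Of these, 35 had a mean of at least 1 FPKM over the 12 libraries and were kept, among 13169 symbols tested. FPKM counts sequenced fragments per kilobase of a transcript, scaled by the depth of the library. *Mvd* and *Fdps* were not analysed here, and *Scd1* averaged 0.402 FPKM and stayed below the filter. Just inside the filter stood *Nr1h3*, at a mean of 1.03 FPKM.

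RNA came from leukemic cells of adult mouse bone marrow that carried MA9 (MLL-AF9), a leukemia-driving fusion of MLL, a histone methyltransferase, to AF9. WT-GFP and WT-Cre cells had a wild type Hoxa cluster, whose homeodomain genes are known targets of MLL fusions, on the strain C57BL/6. Hoxa-flox and Hoxa-del cells carried a cluster flanked by loxP sites, on the strain C57BL/6J. WT-GFP and Hoxa-flox received the control retrovirus, WT-Cre and Hoxa-del a retrovirus with Cre recombinase, which cuts out DNA between loxP sites. Each group had 3 libraries, and all 4 shared the fusion, overnight culture with 4 cytokines (SCF, GM-CSF, IL-6 and IL-3), a retrovirus and a sort for high GFP. Genotype, the strain named and the leukemia of origin differed together, so their parts in a difference between WT and floxed cells cannot be told apart. Whether replicate libraries stem from different mice or cultures is not stated, so a p-value speaks of the spread of these libraries, which may be technical.

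Depth, estimated from the steps of low values, lay between 3.97 M and 18.8 M fragments. *Hoxa9*, a gene of the deleted cluster, stood at 235.5, 217 and 257 FPKM with the floxed cluster, at 83.5, 114 and 119 after its deletion, and at 152 to 183 in the WT libraries. It was lower after Cre but far from 0. The label of leukemic myeloid cells was checked against markers. All 6 leukocyte and myeloid markers were present in every library. In floxed cells 3 were called lower before Cre (13.5% of all symbols) and 2 after it (14.2%). In both comparisons 0 were called higher, against 13.3% and 13% of all symbols. *Cebpa* still stood above the WT range of 73.3 to 98.4 FPKM in Hoxa-flox 1, Hoxa-flox 2 and Hoxa-del 2, at 186, 198 and 212. In the other floxed libraries it lay within that range. *Mpo*, myeloperoxidase, differed widely between floxed libraries, at 179.7 to 326 FPKM in WT libraries but 4.42, 3.80 and 31.1 in Hoxa-flox and 407, 12.5 and 98.2 in Hoxa-del. The summed markers of T and B cells, erythroid cells, adipocytes and stroma stayed at or below 6.05 FPKM. On the log2 scale the median SD of a member within a group was 0.115 in WT-GFP and 0.129 in WT-Cre. It was 0.608 in Hoxa-flox and 0.429 in Hoxa-del, where all symbols had 0.290 and 0.357. The floxed libraries stood in 2 sets that crossed the Cre groups: Hoxa-flox 1, Hoxa-flox 2 and Hoxa-del 2 (set A), and Hoxa-flox 3, Hoxa-del 1 and Hoxa-del 3 (set B).

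As background, cells build cholesterol from acetyl-CoA through mevalonate and squalene. When sterols in the endoplasmic reticulum run low, SCAP carries the SREBP factors to the Golgi, where proteases release them to switch on the genes of sterol and fatty acid synthesis. INSIG proteins hold SCAP back when sterols are plentiful. The LXR receptors sense oxidised sterols and switch on the efflux pumps ABCA1 and ABCG1 as well as MYLIP, which marks the low density lipoprotein receptor for destruction. Growing cells draw on sterol and fatty acid synthesis for membranes, and macrophages are known for strong LXR-driven efflux.

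The promoters of 5 members are shown because they differ in the motifs that these programmes are known to use. The RefSeq table of promoters on GRCm38.p6 held 29 of the 35 members. The 250 bases before each annotated start were searched on both strands for the sterol regulatory element TCACNCCAC, for the NF-Y motif CCAAT and for the LXR motif DR4, AGGTCA repeated in the same direction after 4 bases. NF-Y is known to act beside SREBP at sterol promoters. In the sequences, written 5′ to 3′ along the gene's strand, capitals mark the matches, and a match on the other strand reads ATTGG.
Hmgcs1, chr13:119690101-119690350, plus strand: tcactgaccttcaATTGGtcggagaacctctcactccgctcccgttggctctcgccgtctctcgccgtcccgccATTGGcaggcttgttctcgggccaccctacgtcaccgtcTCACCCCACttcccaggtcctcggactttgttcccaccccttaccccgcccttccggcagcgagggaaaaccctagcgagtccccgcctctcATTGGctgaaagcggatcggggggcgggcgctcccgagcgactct
Mvk, chr5:114444019-114444268, plus strand: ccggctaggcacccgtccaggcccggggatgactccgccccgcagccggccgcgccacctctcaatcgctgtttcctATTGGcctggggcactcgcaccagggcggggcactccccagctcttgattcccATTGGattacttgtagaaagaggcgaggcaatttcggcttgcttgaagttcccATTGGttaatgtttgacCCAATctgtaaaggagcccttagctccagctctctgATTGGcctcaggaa
Lss, chr10:76531355-76531604, plus strand: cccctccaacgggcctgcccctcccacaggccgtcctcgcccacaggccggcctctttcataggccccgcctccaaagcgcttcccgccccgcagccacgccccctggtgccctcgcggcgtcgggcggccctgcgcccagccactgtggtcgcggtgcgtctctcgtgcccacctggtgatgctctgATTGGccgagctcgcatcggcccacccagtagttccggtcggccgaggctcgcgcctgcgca
Fasn, chr11:120824548-120824797, minus strand: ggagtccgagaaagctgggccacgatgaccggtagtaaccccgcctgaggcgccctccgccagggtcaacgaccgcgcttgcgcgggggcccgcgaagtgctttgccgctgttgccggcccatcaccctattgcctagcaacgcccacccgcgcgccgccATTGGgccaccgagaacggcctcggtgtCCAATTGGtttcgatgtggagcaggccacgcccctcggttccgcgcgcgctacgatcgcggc
Abca1, chr4:53159896-53160145, minus strand: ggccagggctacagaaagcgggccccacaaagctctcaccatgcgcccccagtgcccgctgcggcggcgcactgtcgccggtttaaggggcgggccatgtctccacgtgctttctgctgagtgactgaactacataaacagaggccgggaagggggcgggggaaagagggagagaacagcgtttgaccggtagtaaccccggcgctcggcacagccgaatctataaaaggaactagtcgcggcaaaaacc

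*Hmgcs1*, the synthase that makes HMG-CoA for mevalonate, held the SRE from 137 to 129 bases before its start, and 3 CCAAT motifs. *Mvk*, mevalonate kinase, held 5 CCAAT motifs and *Lss*, lanosterol synthase, held 1 from 62 to 58 bases before its start. In *Fasn*, fatty acid synthase, 3 were found, of which those from 62 to 58 and from 59 to 55 bases overlap each other. The promoter of the efflux pump gene *Abca1* held no match to the 3 motifs as spelled here. Over the members with an entry, CCAAT was found in 20 of 29 (69.0%), against 37.5% of 27025 symbols with a promoter of that length. All 9 promoters from squalene to cholesterol held it, as did 4 of 5 of the mevalonate pathway, 3 of 4 SREBP regulators, 3 of 7 of fatty acid synthesis and 1 of 4 of the LXR group. The SRE was found in *Hmgcs1* alone (3.45% of members, 1.22% of all symbols), and the LXR motif in 0 members and 0.0148% of all symbols. The LXR motif was searched in its exact letters alone, found in 4 of 27025 symbols, so a count of 0 members was all but fixed. Looser forms of the 3 motifs were not searched, so the lack of a match does not show that a promoter lacks such an element. A match describes letters and does not show that a factor binds.

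The first question is how the floxed leukemia differed from the WT leukemia before Cre. Enzymes that elongate and desaturate fatty acids showed the largest increases: *Scd2*, *Elovl6* and *Fads2* were higher in Hoxa-flox, and so was *Me1*. In sterol synthesis *Mvk*, *Pmvk*, *Fdft1*, *Lss* and *Dhcr7* were higher, with the regulators *Srebf1* and *Insig1*. The efflux gene *Abca1* was lower, by more than any member was higher. In all 13 of 35 members were called higher (13.3% of all symbols were) and 1 lower (13.5% of all symbols), by limma on log2(FPKM + 1) at an adjusted p under 0.05. The p-values were adjusted over all 13169 symbols by Benjamini-Hochberg. Group values did not overlap in 18 members higher (23.9% of all symbols) and 2 lower (23.3%). The median change of the 35 members was 0.46 on the log2 scale and that of all symbols 0.00. *Me1*, *Elovl6*, *Fads2*, *Nr1h3* and *Abca1* reached a mean of 1 FPKM only in cells of 1 genotype, so they entered the test through it. Without them 10 of 30 were higher and 0 lower. Of the 14 calls, 7 held in each of 15 alternatives: *Fdft1*, *Srebf1*, *Me1*, *Elovl6*, *Scd2*, *Fads2* and *Abca1*. The count was 9, 8 and 7 without WT-GFP 1, 2 and 3, where calls of *Mvk*, *Pmvk*, *Lss*, *Dhcr7*, *Insig1*, *Fads1* or *Mylip* were lost, and 9 when the model held just the groups compared. It was 27 with Hoxa-flox 3 as the sole Hoxa-flox library, where 42.7% of all symbols were called and the median was 1.017, and 23 without it and the rest of set B, where 56.4% of all symbols were.

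The same question was asked after Cre, with other libraries but in the same fit. Between Hoxa-del and WT-Cre, 15 of 35 members were called higher (13% of all symbols) and 3 lower (14.2% of all symbols). The median change was 0.72. Without the 5 members named above, 12 of 30 were higher and 1 lower. The groups did not overlap in 19 members higher and 2 lower (20.7% of all symbols each). In both comparisons 12 members were higher and 1, *Abca1*, was lower. *Sqle*, *Srebf2* and *Stard4* were called higher after Cre alone, *Abcg1* and *Nr1h3* called lower after Cre alone, and *Mylip* called higher before Cre alone. Whether these 6 genes differ between the comparisons is the interaction test given with the Cre results, in which 0 passed. Of the 18 calls, 13 held in each of 15 alternatives, and the count ran from 13 (without Hoxa-del 3) to 19 with a library left out. *Sqle*, *Srebf2*, *Stard4*, *Dhcr7* and *Nr1h3* lost theirs in some of these. The count was 27 without set A and 27 without set B, where 45.7% and 57.6% of all symbols were called.

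**Figure D1:**
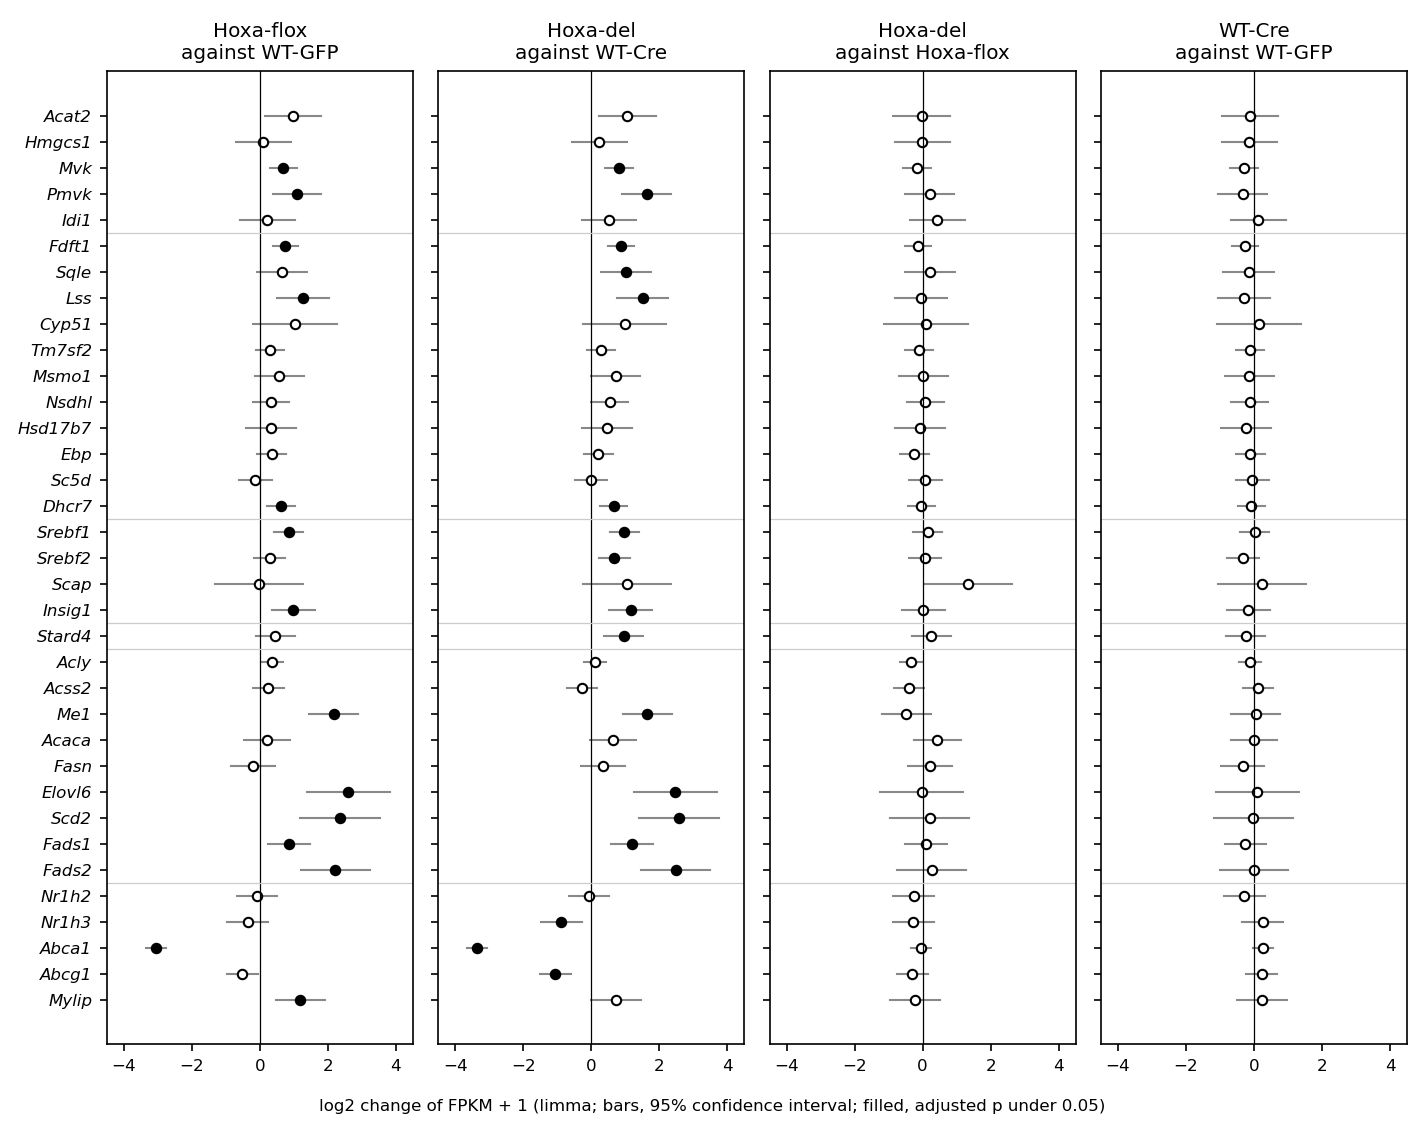
Log2 change of FPKM + 1 (limma) of the 35 members in 4 comparisons; points are changes, bars the 95% confidence interval, and filled points have an adjusted p under 0.05. Filled points occur in the comparisons of floxed with WT cells, 14 before and 18 after Cre, and there are 0 in the comparisons of Cre with control virus.

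Mevalonate pathway genes were followed in order. *Acat2*, which joins acetyl-CoA units, read 4.74, 3.76 and 4.70 FPKM in WT-GFP libraries, 4.33, 3.90 and 3.69 in WT-Cre libraries, 6.61, 6.15 and 21.0 in Hoxa-flox libraries and 7.96, 7.26 and 14.1 in Hoxa-del libraries. Every floxed library lay above every WT library, but the change did not pass, at 0.98 (adjusted p = 0.0786, limma) before Cre and 1.06 (adjusted p = 0.0580, limma) after it. *Hmgcs1* read 14.0, 12.6 and 12.7 FPKM in WT-GFP libraries, 11.7, 11.2 and 12.4 in WT-Cre libraries, 9.17, 10.6 and 27.9 in Hoxa-flox libraries and 17.3, 8.35 and 18.7 in Hoxa-del libraries. The floxed libraries fell on both sides of the WT libraries, and it was not called (0.10 (adjusted p = 0.874, limma) and 0.23 (adjusted p = 0.691, limma)).

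*Mvk* read 9.48, 7.27 and 7.38 FPKM in WT-GFP libraries, 7.18, 5.25 and 6.72 in WT-Cre libraries, 11.996, 12.5 and 16.6 in Hoxa-flox libraries and 9.73, 12.5 and 13.9 in Hoxa-del libraries. All 6 floxed libraries were above the WT range, with changes of 0.69 (SE 0.18, adjusted p = 0.0161, limma) and 0.82 (SE 0.18, adjusted p = 0.00697, limma). *Pmvk*, phosphomevalonate kinase, read 8.23, 8.23 and 8.59 FPKM in WT-GFP libraries, 7.18, 5.33 and 6.88 in WT-Cre libraries, 13.9, 13.4 and 35.9 in Hoxa-flox libraries and 18.3, 18.9 and 30.8 in Hoxa-del libraries. Its groups did not overlap either, and Hoxa-flox 3 and Hoxa-del 3 stood above the other floxed libraries. The changes were 1.09 (SE 0.33, adjusted p = 0.0288, limma) and 1.63 (SE 0.33, adjusted p = 0.00356, limma). *Idi1*, the isomerase of isopentenyl diphosphate, was low, at 0.804 to 1.53 FPKM in WT and 0.671 to 3.63 in floxed libraries, and was not called.

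From squalene to cholesterol, 3 of 11 genes were called higher in Hoxa-flox (13.3% of all symbols) and 4 of 11 in Hoxa-del (13%), and 0 lower. *Fdft1*, squalene synthase, read 5.70, 5.37 and 4.75 FPKM in WT-GFP libraries, 4.74, 3.55 and 4.35 in WT-Cre libraries, 8.37, 8.32 and 12.4 in Hoxa-flox libraries and 7.53, 9.40 and 8.95 in Hoxa-del libraries. All floxed libraries exceeded all WT libraries, by 0.75 (SE 0.17, adjusted p = 0.00767, limma) and 0.89 (SE 0.17, adjusted p = 0.00313, limma). *Lss*, which closes the sterol rings (chromosome 10, 76531588 to 76557138, GRCm38), read 7.41, 9.40 and 8.94 FPKM in WT-GFP libraries, 8.42, 5.88 and 6.34 in WT-Cre libraries, 16.8, 15.4 and 40.5 in Hoxa-flox libraries and 18.5, 15.9 and 32.5 in Hoxa-del libraries. Again the groups did not overlap. The changes were 1.27 (SE 0.34, adjusted p = 0.0189, limma) and 1.51 (SE 0.34, adjusted p = 0.00764, limma), and Hoxa-flox 3 and Hoxa-del 3 were the highest libraries. For *Dhcr7*, which catalyses the last step to cholesterol, the values were 23.4, 19.2 and 17.7 FPKM in WT-GFP libraries, 18.3, 19.98 and 18.3 in WT-Cre libraries, 28.3, 26.4 and 40.1 in Hoxa-flox libraries and 24.6, 32.1 and 35.1 in Hoxa-del libraries. Its lowest floxed library, Hoxa-del 1, was above the highest WT library. The changes were 0.62 (SE 0.18, adjusted p = 0.0294, limma) and 0.66 (SE 0.18, adjusted p = 0.0218, limma).

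*Sqle*, squalene epoxidase, which adds oxygen to squalene, read 9.75, 9.29 and 9.96 FPKM in WT-GFP libraries, 8.49, 8.53 and 8.65 in WT-Cre libraries, 10.5, 11.7 and 30.5 in Hoxa-flox libraries and 21.9, 12.4 and 22.8 in Hoxa-del libraries. Hoxa-flox 1 and 2 and Hoxa-del 2 lay just above the WT libraries, and the other floxed libraries far above. It passed after Cre (1.023 (SE 0.34, adjusted p = 0.0433, limma)) and not before (0.64 (adjusted p = 0.188, limma)). The call was lost, at an adjusted p of 0.111 (limma), when both values the table gives for *Sqle* were summed. Of the other 7 genes, none was called: *Cyp51*, *Tm7sf2*, *Msmo1*, *Nsdhl*, *Hsd17b7*, *Ebp* and *Sc5d*. *Cyp51*, the lanosterol demethylase, had changes of 1.03 and 0.98 with an SE of 0.56, over floxed values of 6.44 to 36.1 FPKM. *Sc5d*, a sterol desaturase, had changes of -0.13 and -0.01.

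Among the regulators, *Srebf1*, which encodes the SREBP factor of fatty acid genes, read 28.9, 29.7 and 29.6 FPKM in WT-GFP libraries, 33.1, 28.1 and 28.3 in WT-Cre libraries, 51.9, 41.4 and 71.6 in Hoxa-flox libraries and 48.6, 61.9 and 70.1 in Hoxa-del libraries. All floxed libraries were above all WT libraries, with changes of 0.84 (SE 0.19, adjusted p = 0.00779, limma) and 0.98 (SE 0.19, adjusted p = 0.00352, limma). *Insig1*, itself a known SREBP target, read 22.1, 20.2 and 20.1 FPKM in WT-GFP libraries, 17.8, 19.0 and 18.3 in WT-Cre libraries, 31.1, 32.1 and 73.0 in Hoxa-flox libraries and 37.4, 35.6 and 57.3 in Hoxa-del libraries. Its groups did not overlap, and the changes were 0.98 (SE 0.29, adjusted p = 0.0275, limma) and 1.17 (SE 0.29, adjusted p = 0.0115, limma). *Srebf2*, which encodes the SREBP factor of sterol genes, read 28.9, 25.6 and 27.1 FPKM in WT-GFP libraries, 21.8, 22.01 and 20.7 in WT-Cre libraries, 25.6, 28.4 and 50.4 in Hoxa-flox libraries and 32.6, 33.3 and 39.6 in Hoxa-del libraries. It overlapped before Cre (0.28 (adjusted p = 0.359, limma)), and after Cre every Hoxa-del library exceeded every WT-Cre library (0.68 (SE 0.21, adjusted p = 0.0336, limma)). *Scap*, the escort of SREBP, read 67.2, 31.6 and 24.0 FPKM in WT-GFP libraries, 34.7, 34.7 and 71.6 in WT-Cre libraries, 37.3, 24.4 and 53.0 in Hoxa-flox libraries and 33.8, 174 and 137 in Hoxa-del libraries. It varied within groups of 1 genotype and virus, for example 24.0 to 67.2 in WT-GFP, and was not called.

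*Stard4*, a carrier of sterols between membranes, read 10.4, 13.02 and 12.5 FPKM in WT-GFP libraries, 11.6, 8.77 and 9.41 in WT-Cre libraries, 12.2, 13.5 and 28.0 in Hoxa-flox libraries and 20.4, 17.3 and 23.1 in Hoxa-del libraries. Before Cre the groups overlapped (0.46 (adjusted p = 0.225, limma)), and after Cre they did not (0.96 (SE 0.26, adjusted p = 0.0190, limma)).

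**Figure D2:**
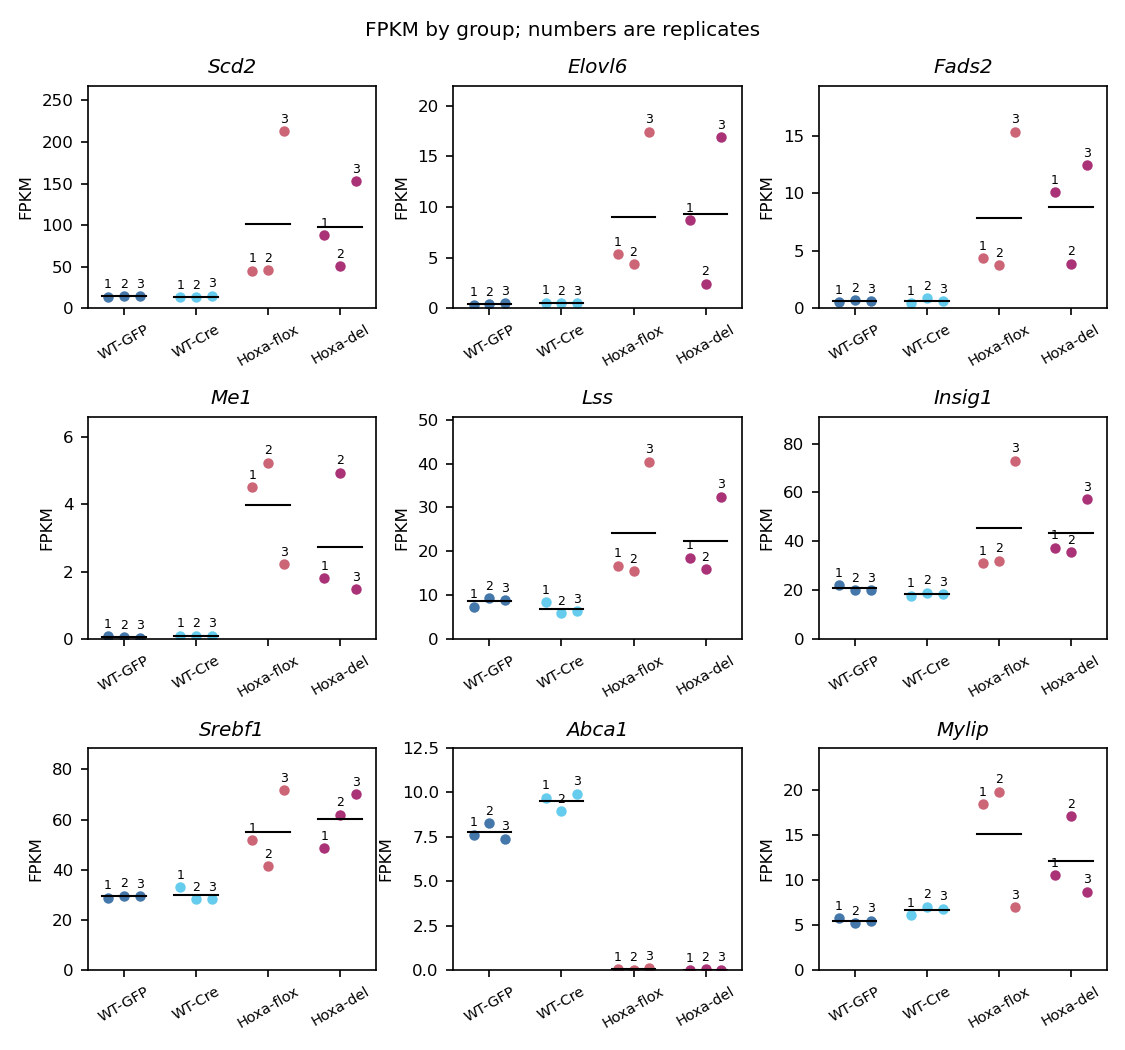
FPKM of 9 members in the 4 groups; each point is a library with its replicate number and each line the mean of 3 libraries, on axes that start at 0. All floxed points of Scd2, Elovl6, Fads2, Me1, Lss, Insig1 and Srebf1 lie above the WT points, Mylip in Hoxa-flox 3 reaches the WT range, and Abca1 lies near 0 in the floxed groups.

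In fatty acid synthesis 5 of 9 genes were higher in each comparison (13.3% and 13% of all symbols) and 0 lower, and 4 of them had the largest increases of the 35 members. Of the 5, *Me1*, *Elovl6* and *Fads2* reached a mean of 1 FPKM only in floxed cells and entered the test through them, while *Scd2* and *Fads1* did not. *Scd2*, a stearoyl-CoA desaturase that makes monounsaturated fatty acids (chromosome 19, 44293674 to 44306864), read 13.8, 14.3 and 14.1 FPKM in WT-GFP libraries, 13.2, 13.5 and 14.9 in WT-Cre libraries, 45.2, 45.6 and 213 in Hoxa-flox libraries and 87.7, 50.4 and 153 in Hoxa-del libraries. The lowest floxed library stood at about 45.2 FPKM and the highest WT library at 14.9. The ratio of group means was 7.20 before and 7.01 after Cre, and the log2 changes were 2.36 (SE 0.53, adjusted p = 0.00693, limma) and 2.58 (SE 0.53, adjusted p = 0.00428, limma). Its neighbour and close copy *Scd1* read 0 to 0.134 FPKM in WT and 0.103 to 1.69 in floxed libraries, highest in Hoxa-flox 3 and Hoxa-del 3. How reads shared by such copies were divided is not given in the sources used here.

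*Elovl6*, which elongates saturated fatty acids (chromosome 3, 129532355 to 129638495), read 0.346, 0.371 and 0.515 FPKM in WT-GFP libraries, 0.544, 0.489 and 0.506 in WT-Cre libraries, 5.31, 4.34 and 17.4 in Hoxa-flox libraries and 8.73, 2.41 and 16.9 in Hoxa-del libraries. Every floxed library was higher than every WT library. The changes were 2.60 (SE 0.55, adjusted p = 0.00510, limma) and 2.47 (SE 0.55, adjusted p = 0.00703, limma). *Fads2*, the delta-6 desaturase of polyunsaturated fatty acids (chromosome 19, 10062765 to 10101746), read 0.509, 0.705 and 0.614 FPKM in WT-GFP libraries, 0.406, 0.864 and 0.594 in WT-Cre libraries, 4.37, 3.76 and 15.3 in Hoxa-flox libraries and 10.1, 3.88 and 12.4 in Hoxa-del libraries. Its groups were apart in the same way (2.22 (SE 0.46, adjusted p = 0.00427, limma) and 2.48 (SE 0.46, adjusted p = 0.00227, limma)).

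*Me1*, malic enzyme, which supplies NADPH (chromosome 9, 86581371 to 86695953), read 0.0805, 0.0574 and 0.0445 FPKM in WT-GFP libraries, 0.0994, 0.105 and 0.106 in WT-Cre libraries, 4.51, 5.23 and 2.22 in Hoxa-flox libraries and 1.80, 4.94 and 1.47 in Hoxa-del libraries. All WT libraries were below the smallest floxed value, and the floxed libraries divided differently from *Scd2*: Hoxa-flox 1, Hoxa-flox 2 and Hoxa-del 2 were the highest. The changes were 2.18 (SE 0.33, adjusted p = 0.000571, limma) and 1.65 (SE 0.33, adjusted p = 0.00357, limma). *Fads1*, the delta-5 desaturase, read 6.49, 4.85 and 5.42 FPKM in WT-GFP libraries, 4.59, 4.31 and 4.60 in WT-Cre libraries, 7.96, 8.66 and 18.3 in Hoxa-flox libraries and 11.02, 9.02 and 15.9 in Hoxa-del libraries. It was higher by 0.86 (SE 0.28, adjusted p = 0.0423, limma) and 1.21 (SE 0.28, adjusted p = 0.00829, limma), and without Hoxa-flox 3 or any WT-GFP library the call before Cre was lost.

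The enzymes that supply acetyl-CoA, make malonyl-CoA and build palmitate from it did not pass. *Fasn* read 62.7, 58.5 and 50.4 FPKM in WT-GFP libraries, 44.8, 49.6 and 40.6 in WT-Cre libraries, 37.6, 39.0 and 83.4 in Hoxa-flox libraries and 46.4, 51.0 and 81.6 in Hoxa-del libraries. The floxed values lay on both sides of the WT values (-0.19 (adjusted p = 0.676, limma) and 0.36 (adjusted p = 0.407, limma)). *Acaca*, acetyl-CoA carboxylase, spanned 12.5 to 17.7 FPKM in WT and 12.4 to 32.3 in floxed libraries. *Acly*, ATP citrate lyase, the member with the highest mean over the 12 libraries, spanned 86.1 to 107 and 78.8 to 125, and *Acss2*, acetyl-CoA synthetase, 2.70 to 4.18 and 2.12 to 4.77. None of these 4 genes was called in either comparison.

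In the LXR group of 5 genes, 1 was higher and 1 lower before Cre, and 0 were higher and 3 lower after it, against 13.3%, 13.5%, 13% and 14.2% of all symbols. *Abca1* and *Nr1h3* reached a mean of 1 FPKM only in WT cells and entered the test through them. Of the remaining genes, *Abcg1* was lower after Cre and *Mylip* higher before it. *Abca1*, the pump that loads cholesterol onto apolipoproteins (chromosome 4, 53030787 to 53159895), read 7.62, 8.26 and 7.39 FPKM in WT-GFP libraries, 9.71, 8.94 and 9.92 in WT-Cre libraries, 0.0347, 0.0275 and 0.0971 in Hoxa-flox libraries and 0, 0.0435 and 0.0183 in Hoxa-del libraries. It was present in all 6 WT libraries and at or near 0 in all 6 floxed libraries. The changes were -3.06 (SE 0.13, adjusted p = 3.71e-08, limma) and -3.37 (SE 0.13, adjusted p = 1.70e-08, limma), which on the log2(FPKM + 1) scale understate the ratio. *Abcg1*, the pump that passes cholesterol to lipoprotein particles, read 7.73, 7.44 and 6.93 FPKM in WT-GFP libraries, 8.54, 9.38 and 8.64 in WT-Cre libraries, 5.74, 5.59 and 3.54 in Hoxa-flox libraries and 2.66, 5.24 and 3.67 in Hoxa-del libraries. All floxed libraries lay below all WT libraries, with -0.51 (adjusted p = 0.0927, limma) before and -1.05 (SE 0.21, adjusted p = 0.00326, limma) after Cre.

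*Nr1h3*, LXR alpha, was low everywhere, at 1.44, 1.24 and 0.964 FPKM in WT-GFP libraries, 1.57, 2.45 and 1.04 in WT-Cre libraries, 0.507, 1.10 and 0.615 in Hoxa-flox libraries and 1.04, 0.318 and 0.0839 in Hoxa-del libraries. Hoxa-del overlapped with WT-Cre in 1 library, and the change was -0.36 (adjusted p = 0.380, limma) before and -0.88 (adjusted p = 0.0353, limma) after Cre, a call lost without Hoxa-del 2 or 3, WT-Cre 1 or 2 and in other settings. *Nr1h2*, LXR beta, was the most abundant of the group, at 58.3 to 84.9 FPKM in WT and 46.2 to 93.6 in floxed libraries, and was not called. *Mylip* went the other way, at 5.74, 5.20 and 5.48 FPKM in WT-GFP libraries, 6.07, 7.03 and 6.81 in WT-Cre libraries, 18.4, 19.8 and 7.02 in Hoxa-flox libraries and 10.5, 17.0 and 8.71 in Hoxa-del libraries. Before Cre it was higher in Hoxa-flox (1.19 (SE 0.33, adjusted p = 0.0204, limma)), a call lost without Hoxa-flox 1, Hoxa-flox 2 or any WT-GFP library, and after Cre it was not called (0.73 (adjusted p = 0.128, limma)).

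Markers of macrophages, which are rich in LXR activity, are given beside these values. Of 9 tested macrophage markers 6 were lower and 0 higher in each comparison of floxed with WT cells (13.5% and 14.2% of all symbols were lower). Of these, *C1qa*, *C1qb*, *C1qc*, *Msr1* and *Mrc1* reached a mean of 1 FPKM in the WT groups alone and entered the test through them. Of the other 4, 1 was lower in each comparison. The sum of the 12 markers ran from 330.5 to 376 FPKM in the WT libraries, from 71.2 to 259 in Hoxa-flox and from 63.1 to 249.5 in Hoxa-del. Of the 12 markers, *C1qa*, *C1qb* and *C1qc* read 20.9 to 29.5, 41.3 to 56.2 and 34.6 to 44.5 FPKM in WT libraries. In floxed libraries they read at most 0.162, 0.461 and 0.239. *Marco*, which stayed below the filter, read 0.535 to 0.836 FPKM in WT libraries and was listed at 0 in all 6 floxed libraries. Not all markers were lower. *Adgre1* read 41.1 to 48.2 FPKM in WT libraries, 95.3 to 99.4 in set A and 29.2 to 42.9 in set B. *Cd68* read 103 to 125 in WT libraries, 121 to 129 in set A and 22.7 to 24.4 in set B. Of the neutrophil markers 4 of 7 were called lower before Cre and 3 of 7 after it, and 0 higher. *Mmp9* of that list read 18.4 to 24.6 FPKM in WT libraries, 48.3 to 61.1 in set A and 4.81 to 6.27 in set B. In bulk RNA fewer cells of a type and less RNA per cell cannot be told apart, and the part of these markers in the values of *Abca1*, *Abcg1* and *Nr1h3* was not tested.

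In 14 of 35 members all 6 floxed libraries were above all 6 WT libraries, against 12.9% of all symbols, and in 2, *Abca1* and *Abcg1*, all were below, against 14.1%. Without the 5 members that entered the test through 1 genotype, 11 of 30 were above and 1 below. Those above were *Acat2*, *Mvk*, *Pmvk*, *Fdft1*, *Sqle*, *Lss*, *Dhcr7*, *Srebf1*, *Insig1*, *Me1*, *Elovl6*, *Scd2*, *Fads1* and *Fads2*. The table was made from stranded libraries, but whether strand was used in counting is not given. Where genes overlap on the genome, as *Srebf1* with *Rai1*, *Cyp51* with *Akap9*, *Fdft1* with *Ctsb* and *Tm7sf2* with *Vps51*, the value may hold reads of the partner.

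**Figure D3:**
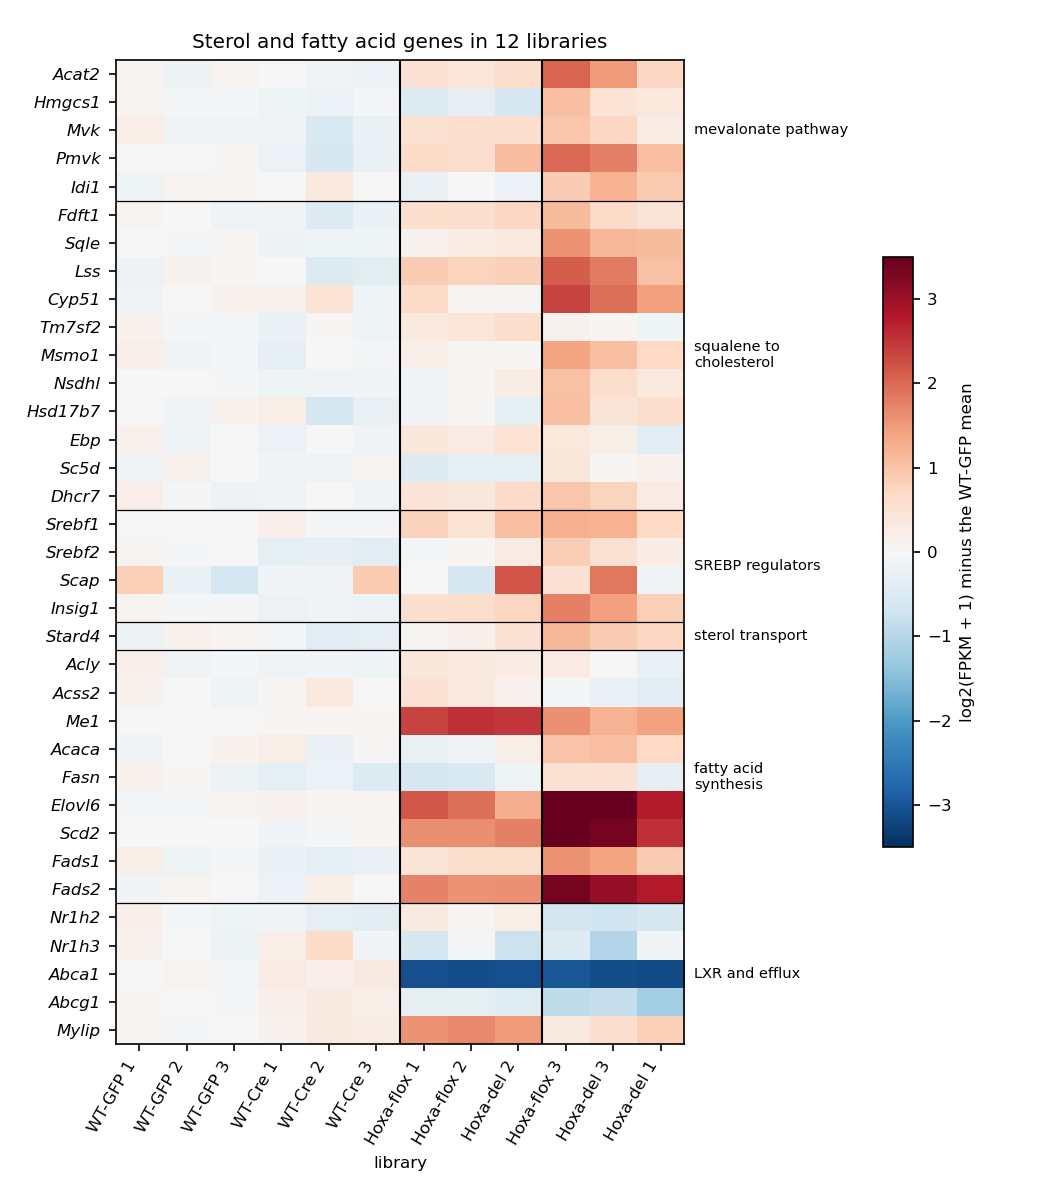
Log2(FPKM + 1) of the 35 members in each library minus the mean of WT-GFP, ordered by role; values past the ends of the colour scale take its end colour. The columns Hoxa-flox 3, Hoxa-del 3 and Hoxa-del 1 are the reddest for most sterol and fatty acid genes, while Abca1 is blue in all 6 floxed columns.

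The other genes of these pathways were taken from lists, whose counts stand against 13.3% of all symbols higher and 13.5% lower before Cre, and 13% and 14.2% after it. Among 7 other genes of sterol synthesis and SREBP processing, 2 were higher in each genotype comparison. *Mbtps1*, the Golgi protease that cuts SREBP, averaged 16.6 ± 0.359 FPKM (SD, n = 3) over the WT-GFP libraries, 15.2 ± 1.04 over WT-Cre, 33.2 ± 5.87 over Hoxa-flox and 27.1 ± 4.60 over Hoxa-del (0.94 (adjusted p = 0.00110, limma) and 0.78 (adjusted p = 0.00379, limma)). In the isoprenoid branch, which turns mevalonate products into anchors for proteins, 3 of 12 were higher before and 2 after Cre, and 0 lower. *Rabggtb*, a subunit of the enzyme that prenylates Rab proteins, averaged 11.1 ± 1.98 FPKM over WT-GFP and 26.5 ± 1.84 over Hoxa-flox (1.19 (adjusted p = 0.00157, limma)). *Fnta*, the shared alpha subunit of farnesyl and geranylgeranyl transferase, changed by 0.65 (adjusted p = 0.0164, limma) and *Rabggta* by 0.65 (adjusted p = 0.0417, limma).

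In other fatty acid and lipid synthesis, 3 of 17 genes were higher and 3 lower before Cre, and 4 higher and 1 lower after it. *Gpam*, which starts the synthesis of glycerolipids, averaged 2.47 ± 0.249 FPKM over WT-GFP and 7.52 ± 1.80 over Hoxa-flox (1.28 (adjusted p = 0.000588, limma)). *Acsl5*, an acyl-CoA synthetase, changed by 0.89 (adjusted p = 0.00163, limma). *Lpin1*, a phosphatidate phosphatase, was lower, at 2.99 ± 0.973 against 6.42 ± 0.319 FPKM (-0.93 (adjusted p = 0.00370, limma)).

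Storage and release of sterols had calls in both directions. *Soat1*, which esterifies cholesterol for storage, averaged 128 ± 5.36 FPKM over WT-GFP and 70.0 ± 4.51 over Hoxa-flox (-0.86 (adjusted p = 0.000476, limma)), and *Nceh1*, a hydrolase of those esters, 15.4 ± 1.27 and 7.22 ± 0.905 (-1.0005 (adjusted p = 0.00223, limma)). *Scarb1*, the receptor for high density lipoprotein, was higher (0.73 (adjusted p = 0.00258, limma)). In that list of 8 genes 1 was higher and 2 lower before Cre, and 1 higher and 3 lower after it.

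Among 7 other LXR targets and partners 3 were lower before Cre and 2 after it, and 0 higher. *Rxra*, which encodes a partner receptor of LXR, read 22.3, 19.0 and 18.3 FPKM in WT-GFP libraries, 17.2, 20.5 and 17.7 in WT-Cre libraries, 0.896, 1.29 and 0.405 in Hoxa-flox libraries and 0.494, 1.19 and 0.511 in Hoxa-del libraries. It reached a mean of 1 FPKM in the WT groups alone and so entered the test through them, and without it 2 of 6 were lower before Cre and 1 of 6 after it. All floxed libraries were under 2 FPKM, with a change of -3.51 (adjusted p = 4.68e-07, limma). *Smpdl3a*, a phosphodiesterase that is a known LXR target, averaged 126 ± 2.12 FPKM over WT-GFP and 24.5 ± 12.7 over Hoxa-flox (-2.48 (adjusted p = 0.00347, limma)). Fatty acid oxidation, the opposite pathway, had 3 of 12 genes higher and 0 lower before Cre, and 2 higher and 2 lower after it. They included the mitochondrial dehydrogenases *Acadl*, at 23.6 ± 1.26 and 58.9 ± 4.78 FPKM (1.28 (adjusted p = 0.000119, limma)), and *Hadh* (0.65 (adjusted p = 0.0183, limma)), with the isomerase gene *Eci1* (0.67 (adjusted p = 0.00920, limma)).

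Among the floxed libraries the sterol genes were spread along a split that crossed the Cre groups. The first principal component of the 6 floxed libraries, computed without the members, held 64.4% of the variance and placed the libraries of set A at the lower end and those of set B at the other. The labels give no such division, so it is described by values and not tested. In 17 of 35 members all set B libraries were above all set A libraries, against 23.1% of all symbols, and in 6 they were below, against 31.7%. The median ratio of set B to set A, of mean FPKM + 1, was 1.52 for the members and 0.949 for all symbols.

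The genes higher in set B included *Cyp51*, *Idi1* and *Hmgcs1* of sterol synthesis. *Cyp51* read 10.4, 6.53 and 6.44 FPKM in set A and 36.1, 18.5 and 26.4 in set B (libraries in the order named above). *Idi1* read 0.671, 1.01 and 0.738 and 2.65, 2.72 and 3.63, and *Hmgcs1* 9.17, 10.6 and 8.35 and 27.9, 17.3 and 18.7. In these 3 genes set B lay above all WT libraries, and set A within or below the WT range except for *Cyp51* in Hoxa-flox 1.

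*Scd2*, *Elovl6* and *Fads2* were above the WT libraries in both sets and higher in set B. *Elovl6* read 5.31, 4.34 and 2.41 in set A and 17.4, 8.73 and 16.9 in set B. Of the mevalonate genes 3 of 5 were higher in set B, from squalene to cholesterol 7 of 11, of the regulators 1 of 4 (*Insig1*), of fatty acid synthesis 5 of 9, and of the LXR group 0 of 5. *Stard4* was also higher.

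Those lower in set B were *Tm7sf2*, *Acss2*, *Me1*, *Nr1h2*, *Abcg1* and *Mylip*. *Mylip* read 18.4, 19.8 and 17.0 in set A and 7.02, 10.5 and 8.71 in set B. *Nr1h2* read 93.6, 80.1 and 87.2 and 47.4, 50.5 and 46.2. Set against the 6 WT libraries, set B lay wholly above them in 23 members and below in 3 (22.3% and 23.7% of all symbols), and set A above in 18 and below in 4 (29.1% and 28.4%).

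Proliferation markers moved with the same split. Only the members were left out when the sets were drawn, so these markers and the tested macrophage markers helped to define them. Their values describe the sets and do not test them. All 8 proliferation markers were higher in set B (23.1% of all symbols). Their sum read 156, 152 and 182 FPKM in set A, 523, 417 and 475 in set B, and 253 to 301 in the WT libraries. *Mki67*, the Ki-67 gene, read 16.4, 14.9 and 17.8 in set A and 88.5, 84.6 and 93.2 in set B. The sum of the macrophage markers read 254, 259 and 249.5 FPKM in set A and 71.2, 63.1 and 65.4 in set B. The part of either in the sterol values was not tested.

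Hoxa-flox 3 stood out within set B. It held the highest of the 12 values in 22 of 35 members (15.8% of all symbols) and of the 6 floxed values in 23 (20.7%). In 28 of 35 members both Hoxa-del libraries of set B were below it (43.6% of all symbols), and in 2 both were above (29.6%). The order Hoxa-flox 3, then Hoxa-del 3, then Hoxa-del 1 held in 25 members (30.9% of all symbols). Within set A, Hoxa-del 2 was above both Hoxa-flox libraries in 19 members and below both in 10 (39.6% and 38.8% of all symbols).

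The median difference of Hoxa-del from Hoxa-flox was 0.06 within set A and -0.43 within set B on the log2 scale, and 0.00 and -0.06 for all symbols. The sets hold 1 library against 2 and 2 against 1, so no test was made, and the value in set B rests on Hoxa-flox 3.

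**Figure D4:**
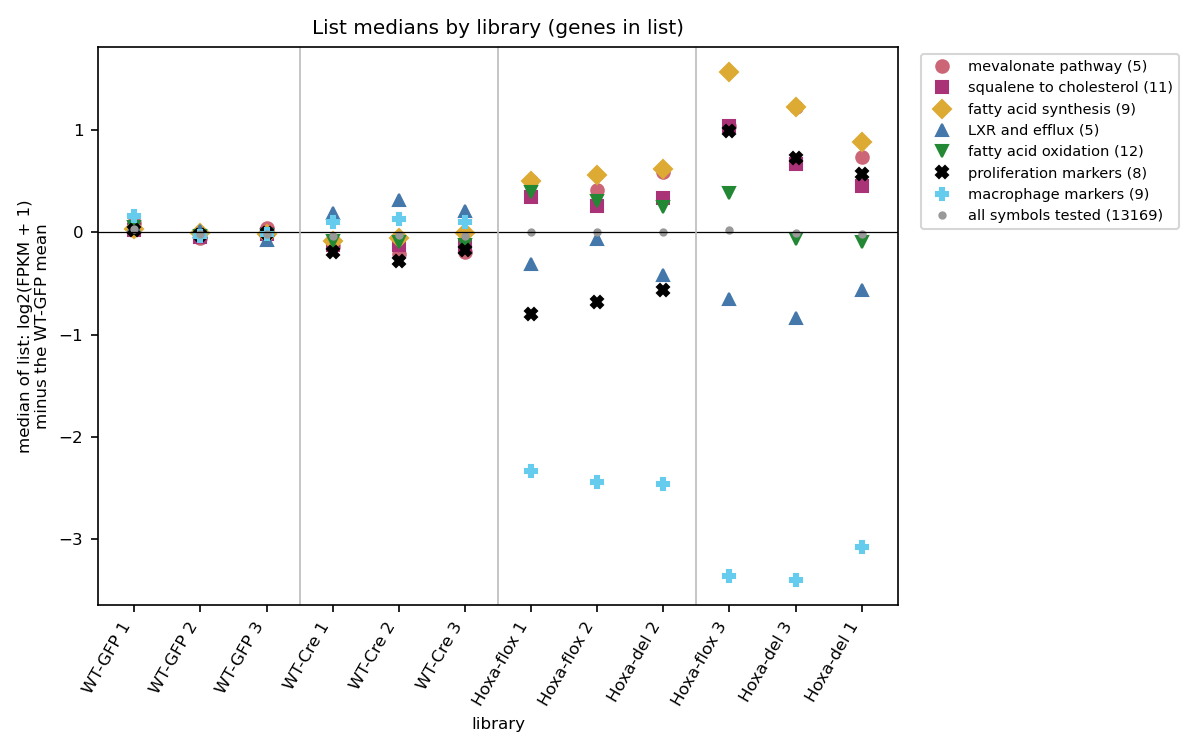
Median over each list of log2(FPKM + 1) minus the WT-GFP mean, per library; symbols are lists with their number of genes, and vertical lines part the WT groups and the library sets. Sterol, fatty acid and proliferation lists are highest in Hoxa-flox 3, Hoxa-del 3 and Hoxa-del 1, while the median of all symbols stays near 0.

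The second question is what Cre changed in floxed cells. No member was called between Hoxa-del and Hoxa-flox: 0 of 35 passed, against 0.0304% of all symbols, and the median change was -0.01 (all symbols -0.06). That median rested on single libraries: it was 0.38 without Hoxa-flox 3, 0.16 without Hoxa-del 2, 0.05 without Hoxa-del 1, -0.11 without Hoxa-flox 1 or Hoxa-del 3 and -0.15 without Hoxa-flox 2. At an unadjusted p under 0.05 there were 2 members (6.27% of all symbols by limma), *Acly* and *Scap*. *Acly* averaged 121 ± 4.80 FPKM (SD, n = 3) with the control virus and 96.2 ± 17.8 with Cre, a change of -0.34 (SE 0.15, adjusted p = 0.729, limma). It was the single member whose groups did not overlap, against 4.14% of all symbols lower in that way, and 0 members were higher in that way (2.25%). *Scap* changed by 1.34 (SE 0.59, adjusted p = 0.729, limma), with Hoxa-del 1 inside the Hoxa-flox range.

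The intervals give a rough size for an unseen change. They rest on a spread shared by all 4 groups. Median member SDs were 0.115 and 0.129 in WT-GFP and WT-Cre, but 0.608 and 0.429 in Hoxa-flox and Hoxa-del. For a comparison of floxed libraries the intervals may thus be too narrow, and a larger change is not excluded. For 27 of 35 members the 95% confidence interval stayed within 1 on the log2 scale in either direction. For *Idi1*, *Cyp51*, *Scap*, *Me1*, *Acaca*, *Elovl6*, *Scd2* and *Fads2* it reached further, for *Scd2* from -0.96 to 1.37. *Srebf1* changed by 0.15 (-0.28 to 0.58) and *Insig1* by 0.02 (-0.61 to 0.65). *Abca1* stayed near 0 in both groups. With weights that count variable libraries less, 21 members passed, 14 higher and 7 lower, and so did 39.3% of all symbols. The other 13 alternatives called 0.

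The third question is what the Cre virus changed where no cluster was floxed. In WT cells 0 of 35 members passed (0.0152% of all symbols), also at an unadjusted p under 0.05 (2.37% of all symbols, limma) and in each of 14 alternatives. The spread shared by all 4 groups includes the more variable floxed libraries, so these p-values can miss small changes among WT libraries. A fit of the WT groups alone also called 0 members at an adjusted p under 0.05 (0.038% of all symbols, limma). The median change was -0.11, and -0.03 for all symbols. It was -0.04 without WT-GFP 1 and -0.06 without WT-Cre 1. In 10 members all WT-Cre libraries were below all WT-GFP libraries (16.3% of all symbols): *Hmgcs1*, *Mvk*, *Pmvk*, *Fdft1*, *Sqle*, *Nsdhl*, *Srebf2*, *Insig1*, *Fasn* and *Fads1*. *Fasn* had the largest of these differences (-0.34 (SE 0.29, adjusted p = 1.0, limma)). In 4 members they were above (9.31%): *Me1*, *Abca1*, *Abcg1* and *Mylip*. *Abca1* had the smallest unadjusted p of the 35 (0.27 (SE 0.13, adjusted p = 1.0, limma)).

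The change with Cre in floxed cells was then set against that in WT cells. The difference passed in 0 of 35 members, against 0.00759% of all symbols (1 of 13169) and its median was 0.13. The median was 0.56 without Hoxa-flox 3, 0.31 without Hoxa-del 2, -0.02 without Hoxa-flox 1, 0.00 without Hoxa-flox 2 and -0.02 without Hoxa-del 3. At an unadjusted p under 0.05 there were also 0 members, against 2.46% of all symbols (324, limma). Each of the 6 lists of other pathway genes also had 0 genes past the threshold in both Cre comparisons, by limma.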

How the data were processed

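RNA-seq of 12 libraries, 4 groups of 3, was used. The deposited table holds 1 value per row and library, and 1855 symbols have several rows. The authors' values were taken as FPKM because STAR, Cufflinks and Cuffdiff 2.2.2.20150701 are named, with GRCm38 and mm10, per the submitters' processing notes; the header states no unit, and the sources used here give neither scaling nor annotation. Totals ran from 548383 to 1211907 FPKM. Of the 28042 rows of the table, that with the highest mean was kept for each of 25263 symbols, and 0 columns lacked a sample. The members, gene lists and library sets were chosen with earlier results of these data known.

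Values were tested with limma 3.58.1 (trend, R 4.3.3) on log2(FPKM + 1), mean at least 1, in 1 model of 4 groups. This understates changes of low genes. Values in every library are given for members past the threshold, up to 3 per role and comparison by adjusted p, and for *Srebf1*, *Srebf2*, *Insig1*, *Nr1h3*, *Abca1*, *Abcg1*, *Fasn*, *Scd2*, *Sqle* and *Hmgcs1*; of other lists, up to 3 genes by adjusted p in Hoxa-flox against WT-GFP, of which 2 are not reported here. The model was tested on simulated data drawn with the same spread per gene in all groups, so that test does not cover unequal spreads. Positions are those of GENCODE M21 and promoters those of RefSeq. Alternatives were a pseudocount of 0.1, no filter, equal upper quartiles, array weights, a model of the groups compared, a replicate block, summed repeats, the library set as a term and libraries left out; leaving out a whole set was added after seeing the data. Replicate numbers did not pair the samples (r from -0.301 to 0.721 between Hoxa-flox and Hoxa-del).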

Additional observations from a re-analysis of the deposited data

How the results depend on the processing

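Over 2695 values of single members under alternative settings, 2336 kept their direction and side of the threshold, 194 changed sign with no call in either setting, 56 lost a call, 100 gained one and 9 turned direction with a call. For Hoxa-flox against WT-GFP the count of 14 members ran from 7 to 14 with a library left out, lowest without WT-GFP 3, and was 9 with just the groups compared. With array weights it was 24, and 21 for Hoxa-del against Hoxa-flox and 20 for the difference of the Cre responses, both 0 otherwise. With them 69.8%, 39.3% and 26.2% of all symbols were called in these comparisons; the weights did not converge, and the cause was not tested. Without set A it was 27 and without set B 23, where lone libraries are assumed to vary like other groups. For Hoxa-del against WT-Cre the 18 ran from 13 to 19.

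With a call, direction turned, with array weights, for *Hmgcs1* (0.66) and *Elovl6* (1.11) in Hoxa-del against Hoxa-flox, for *Cyp51* (1.33) and *Elovl6* (1.05) in the difference of the Cre responses, and for *Hmgcs1* in Hoxa-flox against WT-GFP (-0.27). Without set B it turned for *Hmgcs1* before (-0.37) and after Cre (-0.45) and for *Nr1h2* after Cre (0.49), and without set A for *Sc5d* before Cre (0.41). The cause was not tested. With a replicate block, which the numbers do not warrant, the counts were 15 before and 19 after Cre, and 0 for both Cre comparisons and their difference. Only the groups compared could not be run for that difference, which holds all groups. Values under 1 FPKM rest on few fragments, at depths down to 3.97 M fragments.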
